A study of Sesuvium portulacastrum with 18 samples.

Results

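Roots of Sesuvium portulacastrum kept for 24 h in medium with 250 mM NaCl were set against roots harvested at 0 h, 6 of the 18 libraries of the series. The members were taken from the library labels: 3 root libraries at 24 h and 3 root libraries at 0 h, described as biological replicates. S. portulacastrum is a halophyte, a plant of saline ground, and the study asked how its tissues respond early to salt. The material came from stem cuttings of wild plants, rooted in liquid medium and 15 days old when the medium was changed, with no mutant, transgene or other treatment named. Roots of the 24 h group were transferred to NaCl medium, and roots of the 0 h group received fresh control medium and were harvested at once. No unstressed roots were sampled at 24 h, so the salt, the 24 h since the change of medium and any difference in hour of harvest cannot be told apart.

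Roots meet the salt of the medium first. Excess NaCl lowers the water potential outside the root and lets sodium leak into its cells, and halophytes are known for limiting, exporting or storing that sodium in vacuoles while building up compatible solutes. Transcript profiles of whole roots average over all of their cell types. A lower level in such a profile cannot separate fewer cells of a type from less RNA per cell.

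The 6 libraries held between 10107650 and 13506561 estimated counts, and the 3 libraries of 24 h together held 32794959 against 33843690 at 0 h. Of 97620 transcript IDs, 84548 had a count in at least 1 of the 6 libraries, and 34721 (41.1%) passed the filter on low counts and were tested. These held 98.9% to 99.2% of each library's counts. The tables name transcripts by ID alone, so no pathway list and no root marker could be looked up. Levels are the deposited normalized CPM, which are counts relative to library size after a scaling for library composition. Changes were tested with edgeR by quasi-likelihood, with Benjamini-Hochberg adjustment over all tested transcripts, and a transcript was called changed at an adjusted p under 0.05. Across tested transcripts log2 levels correlated at 0.972 to 0.979 among the 24 h libraries, at 0.963 to 0.975 among the 0 h libraries and at 0.944 to 0.962 between the groups, as a description across transcripts that share libraries.

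After 24 h in NaCl most root transcripts showed no difference that passed the test, and the falls were both more numerous and steeper than the rises. Of the 34721 tested transcripts 2562 changed (7.38%), of which 1560 fell (4.49%) and 1002 rose (2.89%). The median fall was 2.1-fold (log2 fold change -1.07, quartiles -1.7 and -0.7) and the median rise 1.72-fold (0.79, quartiles 0.57 and 1.23), beside a median of -0.01 over all tested transcripts. The medians of falls and rises were the same when transcripts with a group at 0 counts were set at their lower bound. Of the falls 54.8% were at least 2-fold, compared with 35.7% of the rises. These shares, 855 falls and 358 rises, include transcripts with a group at 0 counts. With counts in both groups there were 801 such falls and 350 such rises.

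The number of falls per rise was higher among larger changes. Among transcripts with counts in both groups, changes of less than 1.5-fold numbered 265 rises and 235 falls, and those of 1.5-fold to 2-fold 379 rises and 470 falls. Those of 2-fold to 4-fold numbered 268 rises and 584 falls, those of 4-fold to 16-fold 72 rises and 179 falls, and those of 16-fold or more 10 rises and 38 falls. A further 54 falls had 0 counts in every 24 h library and 8 rises had 0 counts in every 0 h library. Their fitted folds depend on a small count that the fit adds, so they are counted apart from these classes. The count of calls depended on single libraries: leaving out 24 h replicates 1, 2 and 3 gave 1297, 1861 and 1501 calls. Leaving out 0 h replicates 1, 2 and 3 gave 2500, 1835 and 1558. Each of these fits also has fewer samples. Falls outnumbered rises in each of the 6 fits that left out 1 library.

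**Figure D1:**
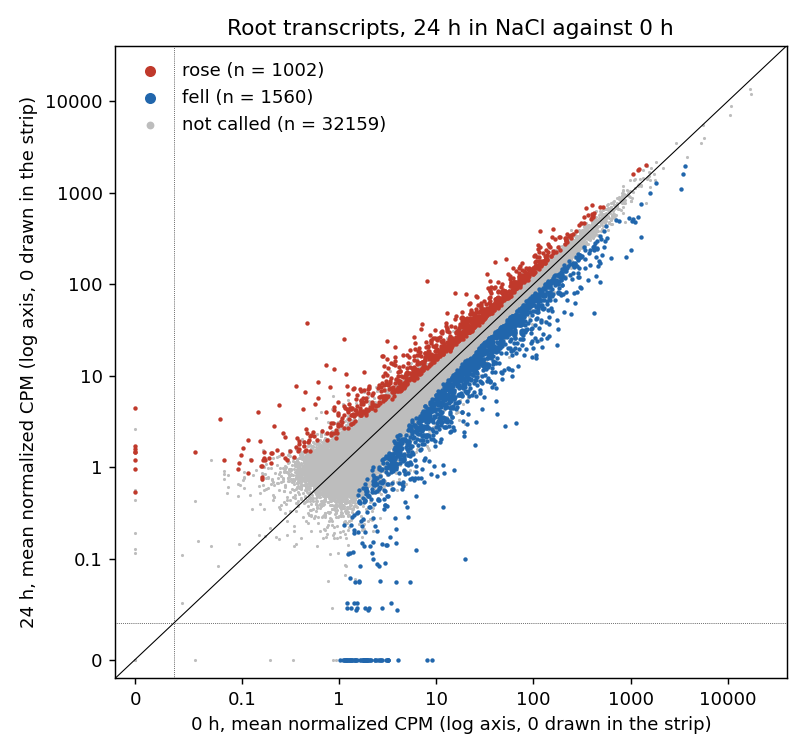
Mean normalized CPM of each tested root transcript at 24 h (vertical, log axis) against 0 h (horizontal, log axis), with the value 0 drawn in a strip at the lower or left edge; red points rose, blue points fell and grey points were not called. At the median the 1560 falls (2.1-fold) lie further from the diagonal than the 1002 rises (1.72-fold), with overlap between the 2 sets. In the strip at 0 for 24 h lie 54 of the falls.

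**Figure D2:**
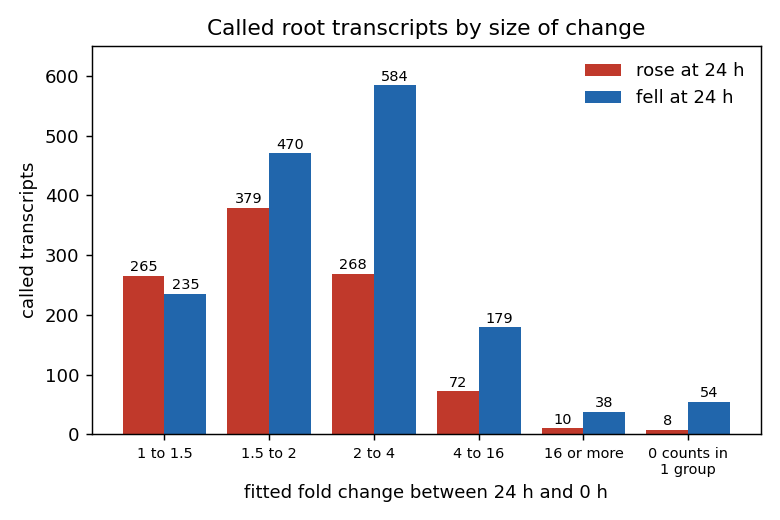
Number of called root transcripts (vertical) by fitted fold change (horizontal), with rises in red and falls in blue. Rises outnumber falls only in the smallest class (265 and 235), and the last pair of bars counts called transcripts with 0 counts in 1 group (8 rises, 54 falls).

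Each library showed these changes to a similar extent. Relative to the mean 0 h level, the median log2 ratio over the called rises was 0.75, 0.72 and 0.76 in 24 h replicates 1, 2 and 3, and between -0.04 and 0.06 in the 0 h libraries. Over the called falls it was -1.03, -0.96 and -1.03 in the 24 h libraries, and between -0.04 and 0.04 in the 0 h libraries. These ratios have 0.5 CPM added to both levels, and they describe transcripts that the same libraries selected. All 3 libraries of 24 h lay beyond all 3 of 0 h for 998 of the 1002 rises and 1547 of the 1560 falls. Over all tested transcripts this held for 27.1%, with 13% wholly above and 14.1% wholly below.

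Abundant transcripts were called more often, and the calls among less abundant ones had larger fitted changes. In the least abundant class all 89 called rises and all 230 called falls were at least 2-fold. When tested transcripts were cut into 3 equal classes by mean CPM over the 6 libraries, the most abundant class (median 36.3 CPM) had 5.47% of its transcripts rising and 7.47% falling. In the middle class (median 5.25 CPM) these shares were 2.42% and 4.03%, and in the least abundant class (median 1.27 CPM) 0.769% and 1.99%. The median fitted log2 fold change of the called falls was -0.77 in the most abundant class and -2.48 in the least abundant. That of the called rises was 0.63 and 2.2. These medians include transcripts with 0 counts in 1 group, whose fitted fold depends on a small count that the fit adds. The median standard error of the log2 fold change was 0.14 in the most abundant class and 0.45 in the least abundant, so at low levels a small change could not be detected. Falls exceeded rises in every class.

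**Figure D3:**
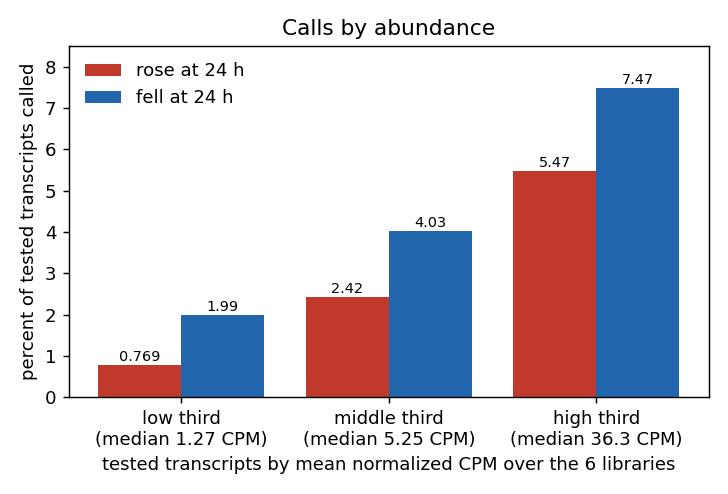
Percent of tested root transcripts called (vertical) in 3 classes of equal size by mean normalized CPM over the 6 libraries (horizontal), rises in red and falls in blue. Both shares increase with abundance, from 0.769% and 1.99% in the least abundant class to 5.47% and 7.47% in the most abundant.

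The falls shifted a larger part of the root's transcript pool than the rises. The 1560 falling transcripts held 5.61%, 5.31% and 5.71% of all counts in the 24 h libraries, against 10.3%, 9.94% and 10.4% in the 0 h libraries. The 1002 rising transcripts held 6.87%, 6.47% and 7.05% at 24 h, against 4.44%, 3.81% and 4.1% at 0 h. Shares within a library are relative, so what the falls lost beyond the gain of the rises lay with transcripts not called. On the normalized scale the falls summed to 54280 CPM at 24 h and 103610 CPM at 0 h, and the rises to 66553 and 41763 CPM. These sums describe transcripts chosen by the same contrast and carry no test.

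A few abundant transcripts carried a sizeable part of the loss, and a smaller part of the gain. The 10 rises with the largest gain of CPM accounted for 15.7% of the summed gain, and the 10 falls with the largest loss for 21.1% of the summed loss. Sets ranked by difference in CPM favour abundant transcripts. Those 10 falls had mean levels of 198 to 1975 CPM at 24 h and 891 to 3609 CPM at 0 h. Their log2 fold changes ran from -2.17 to -0.51. The libraries of the groups overlapped for none of the 10, but 99.2% of all called falls did not overlap either. Just 83 transcripts made up 50% of the summed loss, and 102 transcripts the same share of the summed gain. Falls of at least 2-fold carried 55.1% of the loss, while rises of at least 2-fold carried 23.2% of the gain. Among the 100 tested transcripts of highest mean level, 12 fell, 7 of them at least 2-fold, and 4 rose, each by less than 2-fold. In the most abundant class as a whole 7.47% fell and 5.47% rose, so the 4 rises are not above that share.

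The largest gains in CPM came from transcripts that were already abundant at 0 h, which a ranking by difference in CPM favours. The log2 fold changes of the 2 named here were below the median rise of 0.79. R_Transcript_20003.p1, whose function the files do not give, stood at 1856, 2007 and 1644 CPM in the 24 h libraries and at 1368, 1194 and 1122 CPM in the 0 h libraries. Every 24 h library lay above every 0 h library, which the rule for naming a rise required. Its log2 fold change was 0.58 (SE 0.12, adjusted p = 0.0113), and its place among tested transcripts ordered by mean level was the 16th at 24 h and the 36th at 0 h. Without 0 h replicate 3 it no longer passed the test (0.53, adjusted p = 0.0633).

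R_Transcript_63249.p1 showed a rise of the same size with less spread. Its levels were 1725, 1774 and 1841 CPM at 24 h and 1241, 1184 and 1178 CPM at 0 h, a log2 fold change of 0.57 (SE 0.10, adjusted p = 0.00538). The groups were separate by more than the range of either, and the adjusted p stayed under 0.05 in each alternative run for it.

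**Figure D4:**
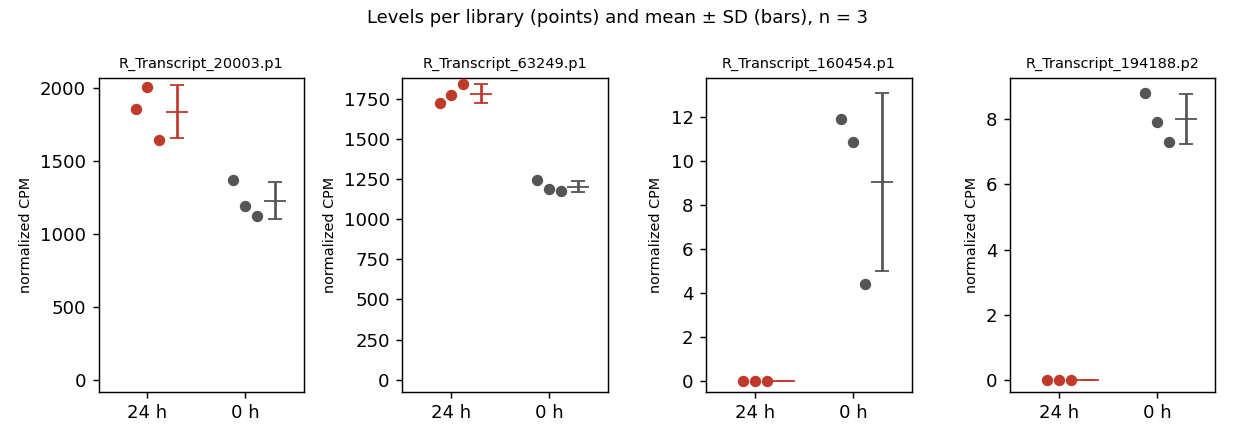
Normalized CPM in each library (points; replicates 1 to 3 from left to right) and mean ± SD of 3 libraries (bars) at 24 h (red) and 0 h (grey), with a separate vertical scale for each of 4 transcripts. The 2 at the left rose to means of 1836 and 1780 CPM at 24 h, against 1228 and 1201 CPM at 0 h, and the 2 at the right were at 0 in all 24 h libraries.

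A set of transcripts present in every 0 h library had no count at 24 h. The highest of them, R_Transcript_160454.p1, had 0 counts in each 24 h library and 165, 103 and 45 counts, or 11.9, 10.9 and 4.44 CPM, in 0 h replicates 1, 2 and 3 (adjusted p = 0.00043). Against a floor of 3 counts per library its level was at least 33.6-fold lower at 24 h. Its 0 h libraries differed among themselves, with replicate 3 below the other two.

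R_Transcript_194188.p2, the next highest, had 0 counts in each 24 h library and 122, 75 and 74 counts, or 8.80, 7.91 and 7.30 CPM, at 0 h (adjusted p = 0.000123). This makes it at least 29.7-fold lower at 24 h, with little spread among the 0 h libraries. After these 2 the levels dropped off, the other lost transcripts having means of 1.03 to 4.07 CPM at 0 h.

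The 54 called losses were scarce transcripts at 0 h. Their median level was 1.82 CPM, 36 of them averaged under 2 CPM, and together they held 0.0114% of the 0 h counts. Single 0 h libraries held between 4 and 165 counts of a lost transcript. Their lower bounds ran from 3.8-fold to 33.6-fold, with a median of 6.73-fold, and 15 were at least 8-fold. Of 62 tested transcripts with 0 counts throughout 24 h, these 54 were called. The 62 did not need counts at 0 h, and the lowest mean level of a tested transcript over the 6 libraries was 0 CPM. Those not called are therefore not all losses that failed the test. Having no count at 24 h, each of the 62 had passed the filter on low counts through libraries of another time. The share of 54 in 62 thus says nothing about the size of the loss in the root as a whole. A further 26 falls kept between 1 and 3 counts over the 3 libraries of 24 h, and 43 falls had 0 counts in 1 or 2 of them.

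The 0 h libraries did not carry the lost transcripts equally. Replicate 3 was the lowest of the 3 for 34 of the 54 (63%), compared with 27.4% of the falls that kept counts and 26.5% of all tested transcripts. The median 0 h level of the lost transcripts was 1.84, 2.06 and 1.28 CPM in replicates 1, 2 and 3. Their median coefficient of variation among the 0 h libraries was 31.9%, against 13.9% for the other falls and 19.6% for all tested transcripts. The part of the level of expression in this spread was not tested.

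The mirror set, with 0 counts in every 0 h library and a call at 24 h, held 8 transcripts. Their mean levels at 24 h ran from 0.541 to 4.49 CPM, and the highest of them had 79, 36 and 36 counts in the 24 h libraries, at least 16.2-fold higher than at 0 h. For 1 of the 8 only 2 of the 3 libraries of 24 h held counts. With 0 counts at 0 h, a member below the filter in any 24 h library passed only through 8 h libraries. The lowest of the 8, with 7, 6 and 5 counts at 24 h, was such a member. In a fit of the 6 libraries alone, whose filter lacked the 8 h libraries, the count of 8 was 3. It was 8, 7 and 13 when 24 h replicates 1, 2 and 3 were omitted in turn. Without 0 h replicates 1, 2 and 3 it was 24, 15 and 19. The 54 losses became 106, 119 and 112 when 24 h replicates 1, 2 and 3 were omitted in turn. A set that needs 0 counts in 2 rather than 3 libraries is wider by construction. Fits without 1 library also tested more transcripts, 36151 to 36648 against 34721. Omitting 0 h replicates 1, 2 and 3 gave 62, 61 and 120 losses, and why replicate 3 stood apart here was not tested.

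**Figure D5:**
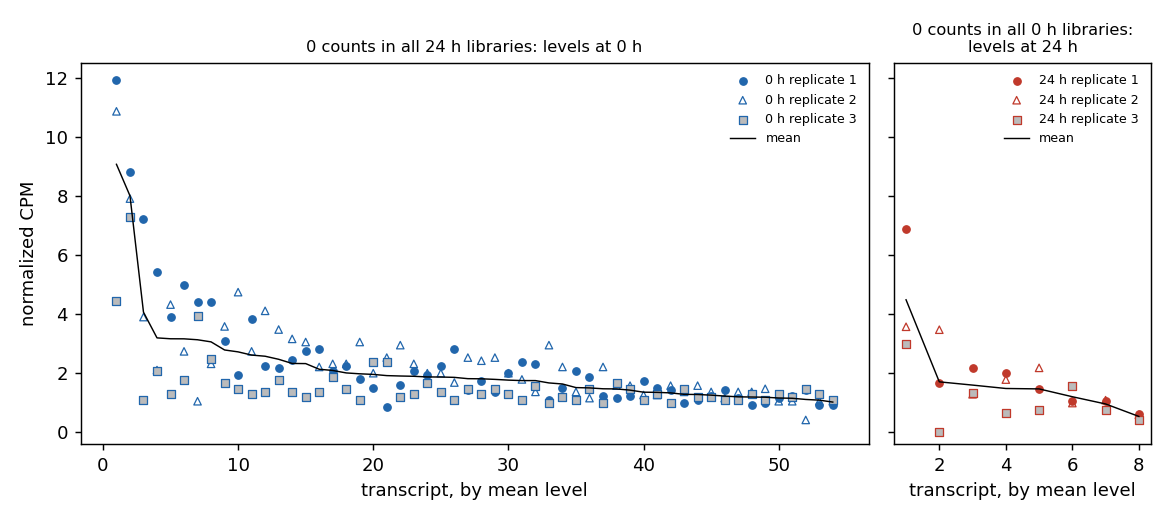
Normalized CPM per replicate (symbols) and mean (line) of called root transcripts with 0 counts throughout the other time, ordered by mean level. The left panel shows the 54 losses at their 0 h levels, with replicate 3 (grey squares) lowest for 34 of them, and the right panel the 8 gains at their 24 h levels.

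Counted over all IDs, which include the called sets above, presence in 1 group alone was more frequent at 0 h. In all 380 transcripts had counts in all 3 libraries of 24 h and none at 0 h, and 1119 had counts in all 3 of 0 h and none at 24 h. With at least 10 counts summed over the group, 61 were present only at 24 h and 447 only at 0 h. With at least 30 counts there were 15 only at 24 h and 139 only at 0 h, and with at least 100 counts 3 only at 24 h and 8 only at 0 h. Thinning all 6 libraries once to the smallest total, 10107650 counts, left 58 only at 24 h and 418 only at 0 h with at least 10 counts. When 1 library of each group was left out, the 9 possible pairs gave 76 to 180 transcripts present only at 24 h and 338 to 622 present only at 0 h. The number only at 0 h divided by the number only at 24 h ran from 1.88 to 7.68, and the 3 lowest ratios (1.88, 2.56 and 2.58) were the pairs without 0 h replicate 1. Without 0 h replicate 1 alone, which leaves 3 libraries against 2, 246 were present only at 24 h and 267 only at 0 h. None of these counts was tested.

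The number of transcripts detected per library was lower at 24 h by an amount that depended on single libraries. In a draw of 10107650 counts from each library, 62386, 59984 and 62347 transcripts would have had a count in the 24 h libraries, against 66337, 63111 and 62405 in the 0 h libraries. The means were 61572 ± 1375 at 24 h and 63951 ± 2096 at 0 h (SD, n = 3 each; two-sided exact permutation p = 0.1, the smallest this design allows). The groups did not overlap, but the highest 24 h library and the lowest 0 h library differed by few transcripts. Counted without thinning, the numbers were 62262 ± 1646 at 24 h and 64908 ± 3646 at 0 h (exact permutation p = 0.5, n = 3 each). Counting transcripts with at least 5 counts gave 40786 ± 1598 at 24 h and 41772 ± 3170 at 0 h (exact permutation p = 0.8, n = 3 each). The difference between the means at equal depth, -2380 transcripts, was -1190 without 0 h replicate 1 and -1580 without 24 h replicate 2. The 100 most abundant transcripts of each library held 16.3 ± 1.69% of its counts at 24 h and 18 ± 2.34% at 0 h (exact permutation p = 0.4, n = 3 each), a difference within the spread between replicates. That difference of -1.74 percentage points became -0.521 when 0 h replicate 2 was omitted, -2.86 when 0 h replicate 1 was, and -2.71 when 24 h replicate 2 was.

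The ID numbers are the only annotation in the files, and the changed transcripts were not spread evenly over them. Of the 344 falls that had a tested transcript numbered 1 above or below, 109 (31.7%) had a neighbour that also fell, while 4.14% of all tested transcripts with such a neighbour had one that fell. Of 273 such rises 66 (24.2%) had a neighbour that rose, against 3.35% over all tested transcripts. Of 5242 tested pairs with numbers 1 apart, both fell in 58, both rose in 34, and 10 moved in opposite directions. Near-identical transcripts can share reads, so such pairs may not be separate observations, and the files do not say what neighbouring numbers have in common. Of 1366 tested pairs with the same number and another suffix, both fell in 5 and both rose in 3. Summing the counts of IDs that share a number left 2601 calls, 1016 up and 1585 down. That sum leaves pairs with numbers 1 apart unmerged, so it cannot tell whether those are separate observations.

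The lost transcripts differed from the rest in their IDs. A suffix other than .p1 was carried by 22 of the 54 (40.7%), by 7.3% of the falls that kept counts, by 5.99% of the rises and by 12.1% of all tested transcripts. Among the other tested transcripts within the same range of 0 h levels the share was 15.8%. That range ran from 1.03 to 9.07 CPM while the lost set had a median of 1.82 CPM, so levels were not matched within it. The median ID number of the lost set was 285857, compared with 114170 for that range of levels and 87913 for all tested transcripts. The files do not say what the suffix or the numbering means.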

How the data were processed

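RNA of whole roots was made into libraries with a strand-keeping kit, per the labels' protocols. Tools listed in the submitters' processing notes, with no role given, are Trimmomatic, kallisto (0.45) and edgeR (3.40.1). Per transcript, the authors deposited estimated counts as whole numbers (no rounding was needed) and a normalized signal. The deposited signal equalled CPM from those counts divided by 1 factor per library, and the factors equalled edgeR's TMM (trimmed mean of M values) factors. Assembly and strand use in counting are not given in the sources used here. Shoot tables were not used, and 0 columns lacked a sample.

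In R 4.3.3, edgeR 4.0.16 kept transcripts by filterByExpr (minimum count 10, by group) and fitted 1 quasi-likelihood model with TMM scaling to all 9 root libraries. The 8 h libraries entered the filter and the estimate of spread (biological coefficient of variation 0.184), and the contrast was 24 h minus 0 h, two-sided. Standard errors are the log2 fold change over the square root of F. A count of 0 was given a floor of 3 counts per library, 0.216 to 0.316 normalized CPM, which covers counting error only. No 2 libraries of a group agreed within sampling noise (chi-square per degree of freedom of at least 4.22 for every pair).

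IDs named were the 2 called rises with the largest gain in mean CPM whose groups did not overlap, and the 2 called losses to 0 counts with the highest 0 h level. Comparisons, members and rules were chosen with earlier results of these data known. Alternatives were other scalings, no filter, DESeq2 1.42.0, the 6 libraries alone, a replicate block, each library left out, counts summed by ID number and a stricter threshold. Thinning, and leaving out 1 library of each group, were added after seeing the data.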

Additional observations from a re-analysis of the deposited data

How the results depend on the processing

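The direction of the split held in every fit run: falls outnumbered rises with DESeq2's size factors, library size alone, DESeq2's own test, the 6 libraries alone and each library left out, with rises between 29.2% and 44.5% of calls, against 39.1% in the fit reported. Without the filter on low counts 87369 transcripts were tested and 4353 called, 1587 up and 2766 down. Of these 658 and 1751 were at least 2-fold, and 78 and 369 were at 0 counts in 0 h or 24 h alone. Only 54.1% of the 4353 calls were shared with the fit reported. Quasi-likelihood p-values of the unfiltered fit were not comparable: for R_Transcript_160454.p1 the adjusted p went from 0.00043 to 8.37e-40. At an adjusted p under 0.01 there were 1010 calls, 323 up and 687 down, with 195 and 496 at least 2-fold, a stricter setting by construction. The fit of the 6 libraries, whose filter lacked the 8 h libraries, gave 3 transcripts with 0 counts at 0 h only. Leaving out 1 library at a time gave 1297 to 2500 calls, 455 to 1089 rises, 824 to 1411 falls, 61 to 120 losses to 0 counts and 7 to 24 gains, and each such fit has fewer samples. The untested numbers with at least 10 counts were 38 to 246 present only at 24 h and 267 to 663 present only at 0 h. The cause was not tested where none is named.

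Same-numbered libraries deviated from their group means with correlations of 0.095, 0.272 and -0.043, so the numbers were not taken as pairs. With a replicate block 2769 transcripts were called, 2386 of them among the 2562, and 0 h replicate 1 correlated best with 24 h replicate 3. At 3 libraries per group and this depth, changes in the least abundant transcripts were detectable only when large.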

Other observations

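A few transcripts that the filter on low counts left out were abundant in 24 h replicates 1 and 2 and nearly absent from the other libraries of both groups. With at least 100 counts over 24 h and 0 at 0 h there were 4 of them. The highest had 1779 and 1857 counts (155 and 184 CPM) in 24 h replicates 1 and 2, 0 in replicate 3 and 0 in all 0 h libraries. The next 2 had 658 and 769, and 508 and 603 counts in replicates 1 and 2, and 1 count each in replicate 3. These 3 share an ID number and differ in suffix, so they may share reads. The fourth had 227 and 250 counts in replicates 1 and 2 and 0 in replicate 3. In the other direction 1 untested transcript had 0 counts at 24 h and 90, 65 and 0 counts in 0 h replicates 1, 2 and 3. No test was run on these 5, which were picked for their values.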
